A study of Homo sapiens with 2 samples.

Results

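The cytochrome P450 genes are the rows of the deposited table whose symbol is CYP followed by a family number, a subfamily letter and a member number. They are 55 of the 20985 genes listed, and symbols with another form, such as antisense transcripts, were not taken. The levels come from RNA sequencing of the lung adenocarcinoma line HCC827, which carries an activating mutation in EGFR, and of its derivative HCC827 ZDR3. The derivative was selected with gefitinib, an inhibitor of the EGFR kinase: exposure began at 10 nM for 1 month, was raised 3-fold each month to 1 µM, and 3 colonies were then picked. Whether ZDR3 is 1 of those colonies, and whether the drug was present at harvest, the labels do not say. Each group held 1 library, the parental one with 257192607 reads in genes and the resistant one with 243549869. There is therefore no replicate check and no p-value. All differences below are between these 2 libraries, and spread between cultures is unknown.

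Cytochrome P450 enzymes are haem proteins that insert an oxygen atom into their substrates. Most sit in the endoplasmic reticulum and take electrons from the reductase POR, while the mitochondrial members take them from a ferredoxin. Families 1 to 3 act mainly on drugs and other foreign compounds, family 4 on fatty acids, and the remaining families make or degrade steroids, bile acids, vitamin D and retinoic acid. CYP3A4, CYP3A5, CYP2D6 and CYP1A1 are known to metabolise gefitinib. Many of these genes respond to ligand-activated receptors, so their transcripts are used as readouts of those receptors.

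Levels are in normalised reads, where 1 unit stands for 143 parental or 138 resistant reads, and they are not divided by gene length. The log2 ratio is log2((resistant + 1)/(parental + 1)), which understates the difference of low genes. A gene counted as expressed if either library had it at a level of 1 or more. Fold differences are plain ratios of levels with an exact 95% binomial (Clopper-Pearson) interval. These intervals cover counting error only, since no molecular identifiers are named and several reads can stem from 1 molecule.

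Of the 55 genes, 24 were expressed. By the log2 ratio, 6 of the 24 (25.0%) were 2-fold or more higher in the resistant library, beside 10.6% of all 13777 expressed genes. Another 6 (25.0%) were 2-fold or more lower, beside 9.68%. The count of higher genes rests on low levels: it was 2 of 24 with a pseudocount of 5, beside 6.54% of all genes, and 2 of 14 at a minimum level of 5, beside 9.94%. The median log2 ratio of the 24 was 0.36, beside -0.03 for all expressed genes, and the median of its absolute size was 0.97, beside 0.42. Among the higher genes were CYP3A5, CYP3A4, CYP26B1, CYP2J2 and CYP7B1, and the lower genes were CYP24A1, CYP1B1, CYP1A1, CYP4F11, CYP26A1 and CYP4B1. Of the 24, 11 reached a level of 1 in 1 library only and so could hardly be counted without differing. Among the 13 that reached it in both, CYP1B1, CYP2J2 and CYP3A5 were beyond 2-fold. The matching share over all genes was not computed, so this count cannot be set against it. By a rule for lower levels, added after seeing the data, 31 members had at least 30 reads in a library. Of these 8 (25.8%) had a whole counting interval beyond 2-fold higher and 10 (32.3%) beyond 2-fold lower, where 12.0% and 11.0% of all 15297 such genes did.

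**Figure D1:**
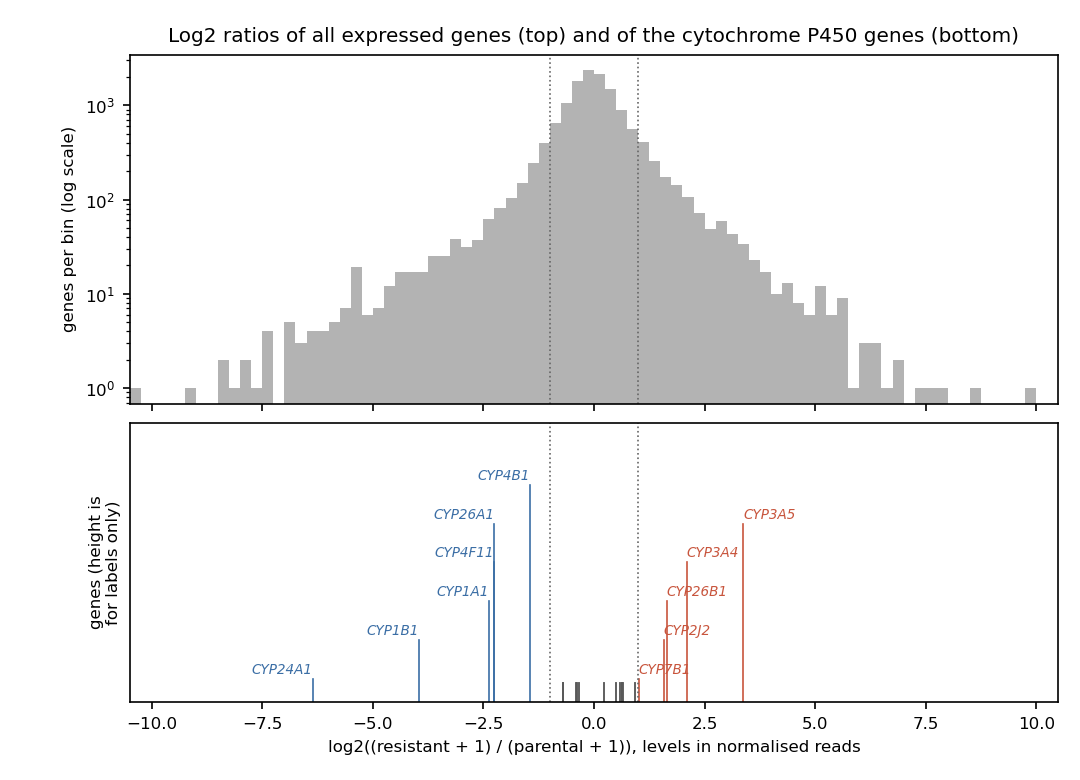
Top: number of expressed genes by log2 ratio of resistant over parental, in bins of 0.25 (vertical axis on a log scale). Bottom: 23 expressed cytochrome P450 genes on the same axis, with the 11 beyond 2-fold (dotted lines) named and the others as short grey ticks; they reach from CYP24A1 at -6.36 to CYP3A5 at 3.37.

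The summed level of the family was 531 (parental) and 320 (resistant). Divided by exon length, CYP51A1, CYP24A1 and CYP1B1 led the parental library, with 43.1, 41.0 and 19.3 normalised reads per kb, and together made up 79.2% of the family's summed level per kb. In the resistant library CYP51A1 alone made up 60.5%, at 50.4 per kb, followed by CYP2J2 at 5.12 and CYP20A1 at 4.51. CYP24A1 and CYP1B1 stood there at 0.251 and 1.08 per kb. Exon lengths are those of GENCODE release 29, and the annotation the authors counted on is unknown here.

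**Figure D2:**
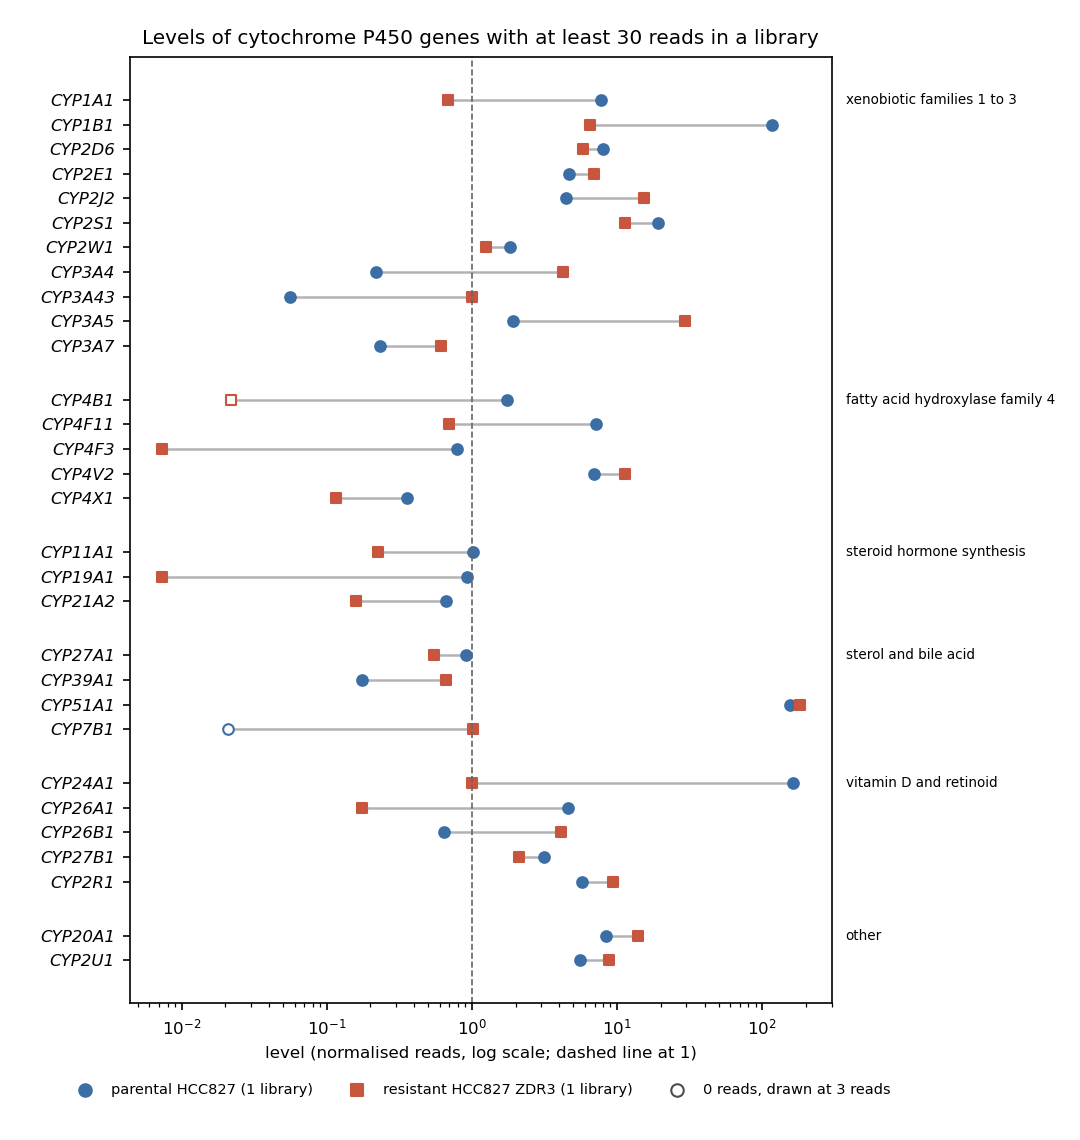
Level in normalised reads (log scale) of 30 cytochrome P450 genes with at least 30 reads in a library, grouped by substrate class. Circles are the parental and squares the resistant library, an open symbol stands for 0 reads and is drawn at 3 reads, and the widest gaps are those of CYP24A1, CYP19A1, CYP4F3 and CYP4B1.

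Vitamin D and retinoid enzymes held the most extreme member. CYP24A1, the mitochondrial hydroxylase that inactivates vitamin D, stood at 163 (23294 reads) in parental cells and 0.996 (137 reads) in resistant cells. It was the most abundant member in unadjusted reads in the parental library, and was 164-fold lower in the resistant one (counting interval 138 to 195, log2 ratio -6.36). CYP27B1, which makes the active hormone, was at 3.16 and 2.12 (log2 ratio -0.41), and CYP2R1, which carries out the preceding hydroxylation, at 5.71 and 9.40 (0.63). Neither reached 2-fold. VDR, the receptor that induces CYP24A1, was at 114 and 38.0 (-1.56), and its partner RXRA at 45.3 and 32.6 (-0.46). These 2 receptor genes were chosen after their values were seen. CYP27B1 shares 3.11% of its exon length with METTL1 on the same strand, which stood at 16.1 and 33.6.

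The retinoic acid hydroxylases took opposite directions. CYP26A1 was at 4.61 (659 reads) in parental and 0.174 (24 reads) in resistant cells, 26.4-fold lower (17.6 to 41.6). In GENCODE 29 another model on the same strand, AL358613.3, shares 25.2% of its exon length and 23.3% of its 50-base words (stretches of transcript that occur in both), so its value is uncertain. CYP26B1, a close relative with the same reaction, was at 0.644 (92 reads) and 4.13 (569 reads), 6.42-fold higher (5.14 to 8.09). CYP26C1 had no reads in either library. CYP27C1, a retinoid desaturase, had 15 and 1 reads. Per kb of exon, CYP26A1 was the higher of the pair in the parental library (1.55 against 0.128 normalised reads) and CYP26B1 in the resistant one (0.824 against 0.0587).

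Retinoic acid itself induces CYP26A1, and the promoter of this gene is shown because it carries a paired element of the kind that retinoic acid receptors bind. The 250 bases before the start with this element are given 5′ to 3′, from RefSeq (GRCh38.p14, chr10:93073643-93073892, plus strand). RefSeq also gives this gene another start, where the pair was not found. Capitals mark the receptor core AGTTCA, here on the opposite strand.

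CYP26A1: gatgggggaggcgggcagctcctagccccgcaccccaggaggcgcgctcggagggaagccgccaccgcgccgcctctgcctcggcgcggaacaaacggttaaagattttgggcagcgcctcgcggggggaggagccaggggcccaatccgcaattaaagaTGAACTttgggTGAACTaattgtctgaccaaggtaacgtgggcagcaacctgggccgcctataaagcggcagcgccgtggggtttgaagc

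The 2 cores begin at positions -90 and -79 from the start, in the same orientation with 5 bases between them. Such a direct repeat, counting AGTTCA or AGGTCA on either strand, was found in 7 of 35116 RefSeq promoter windows (0.0199%), each from 250 bases before to 50 after a start. CYP26A1 was the 1 member with it among the 39 members whose windows were searched. Members on chromosome 8 were left out of this search, while the 35116 windows were not restricted by chromosome. A match is a description of the letters and does not show binding.

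Other retinoid genes outside the P450 family also differed in both directions. Of 10 expressed genes, from a list of 14, 4 were 2-fold or more lower and 1 was 2-fold or more higher, beside 9.68% and 10.6% of all expressed genes. Their median log2 ratio was -0.51. The retinol transporter gene STRA6 was at 170 and 0.552 (-6.78), the retinaldehyde dehydrogenase ALDH1A3 at 761 and 11.5 (-5.93) and the retinoic acid carrier CRABP2 at 369 and 14.1 (-4.61). LRAT, which esterifies retinol, was at 0.329 and 1.16 (0.70). Against these, ALDH1A1, which makes retinoic acid as ALDH1A3 does, was at 1.14 and 1905 (9.80).

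The CYP1 family was lower in the resistant library. CYP1B1, which oxidises oestrogens and polycyclic hydrocarbons, was at 116 (16542 reads) in parental and 6.49 (893 reads) in resistant cells, 17.8-fold lower (16.7 to 19.1, log2 ratio -3.96). CYP1A1, which oxidises polycyclic hydrocarbons, was at 7.73 (1104 reads) and 0.683 (94 reads), 11.3-fold lower (9.16 to 14.1, -2.37). CYP1A2, its liver counterpart, had 4 reads in each library. The antisense gene CYP1B1-AS1 overlaps 11.3% of the exon length of CYP1B1 and stood at 5.54 and 0.356. Whether the counting used strand is unknown, so reads of this pair cannot be told apart within the overlap.

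Both genes are classical targets of the aryl hydrocarbon receptor, a ligand-activated factor that pairs with ARNT. The receptor gene AHR was at 154 and 40.2 (-1.92), ARNT at 115 and 99.2 (-0.21) and its relative ARNT2 at 0.896 and 7.27 (2.13). Of 7 expressed receptor targets outside the P450 family, from a list of 8, 2 were 2-fold or more higher and 1 was 2-fold or more lower, beside 10.6% and 9.68% of all expressed genes. The quinone reductase NQO1 was at 339 and 52.5 (-2.67), and the receptor's repressor AHRR at 10.4 and 5.16 (-0.89). TIPARP was at 171 and 129 (-0.41) and SLC7A5 at 882 and 1075 (0.28). In the opposite direction, the glucuronosyltransferase genes UGT1A6 and UGT1A1 had log2 ratios of 3.06 and 2.57; UGT1A genes share their last exons, so reads can be split between them.

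The CYP1A1 promoter is shown for the core of the receptor's binding element, GCGTG, in capitals (RefSeq, GRCh38.p14, chr15:74725529-74725778, minus strand, 250 bases before the start, 5′ to 3′).

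CYP1A1: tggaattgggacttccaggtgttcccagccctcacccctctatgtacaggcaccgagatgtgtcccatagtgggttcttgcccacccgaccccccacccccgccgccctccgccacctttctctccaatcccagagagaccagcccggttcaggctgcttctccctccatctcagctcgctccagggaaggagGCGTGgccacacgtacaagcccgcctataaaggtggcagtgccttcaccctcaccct

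The 1 match begins at position -57. GCGTG on either strand is common: 36.5% of all 35116 promoter windows hold it, as do 25.0% of the 52 searched windows of the members. CYP1B1 and CYP24A1 are among the members named here without a sequence.

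The CYP3A genes, neighbours on chromosome 7 that include the main drug-metabolising P450 of adult liver, were higher in the resistant library. CYP3A5 was at 1.93 (276 reads) in parental and 29.3 (4027 reads) in resistant cells, 15.1-fold higher (13.4 to 17.2, log2 ratio 3.37). CYP3A4 was at 0.217 (31 reads) and 4.23 (582 reads), 19.5-fold higher (13.6 to 29.0), and CYP3A43 had 8 and 138 reads, 17.9-fold higher (8.84 to 42.3). The intervals of these 3 ratios overlap. CYP3A7, the fetal form, had 33 and 84 reads, 2.64-fold higher (1.75 to 4.08), an interval below those of the other 3. Per kb of exon, CYP3A5 stood at 4.33 and CYP3A4 at 1.35 in the resistant library. By the log2 ratio CYP3A43 (0.92) did not reach 2-fold, because the added unit weighs heavily at its level of 1.00.

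Reads of near-identical genes can be counted for the wrong member. As a measure of this, 2.41% of the 50-base words in CYP3A5 transcripts also occur in another gene's transcripts, 7.99% for CYP3A4 and 1.06% for CYP3A43. For CYP3A7 the share was 39.8%, nearly all of it with a readthrough transcript of its own locus, and its value is uncertain. The authors' read length is unknown here.

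The promoters of CYP3A4 and CYP3A5 are shown side by side because both genes were over 10-fold higher and because both carry a receptor core pair (RefSeq, GRCh38.p14, minus strand, 250 bases before the start, 5′ to 3′; CYP3A4 chr7:99784185-99784434, CYP3A5 chr7:99679997-99680246). Capitals mark AGTTCA or AGGTCA on either strand, and in CYP3A5 also GTTAAT, a core of the HNF1 element.

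CYP3A4: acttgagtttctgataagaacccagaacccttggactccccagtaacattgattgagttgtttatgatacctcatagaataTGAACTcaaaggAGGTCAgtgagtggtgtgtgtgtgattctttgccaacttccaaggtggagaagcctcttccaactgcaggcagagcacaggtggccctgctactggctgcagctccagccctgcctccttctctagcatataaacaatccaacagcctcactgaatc

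CYP3A5: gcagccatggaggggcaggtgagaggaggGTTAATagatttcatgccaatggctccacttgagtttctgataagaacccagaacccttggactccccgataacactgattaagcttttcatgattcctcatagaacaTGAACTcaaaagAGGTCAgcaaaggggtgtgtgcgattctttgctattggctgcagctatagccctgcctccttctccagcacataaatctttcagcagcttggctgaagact

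In both, the cores point away from each other with 6 bases between them, from position -169 in CYP3A4 and -113 in CYP3A5. This everted repeat, known in CYP3A4 as an element of the pregnane X receptor, was found in 7 of the 35116 windows (0.0199%). Among the searched members it was found in these 2 genes. GTTAAT stands at position -221 in CYP3A5, was also found in the windows of CYP3A43 and CYP3A7, and occurs in 6.88% of all windows. The pregnane X receptor gene NR1I2 had 0 parental and 12 resistant reads, and HNF4A, another regulator of liver P450 genes, 0 and 4. NR1I3, another receptor known to control P450 genes, was at 10 and 12.4 (log2 ratio 0.28). These genes were chosen after their values were seen.

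Among the other drug-metabolising members, CYP2J2, an epoxygenase of arachidonic acid, was at 4.45 (636 reads) in parental and 15.3 (2107 reads) in resistant cells, 3.44-fold higher (3.15 to 3.76, log2 ratio 1.58). CYP2C18, with 6 and 22 reads, CYP2C19, with 0 and 2, and CYP2C8, with none, stayed under 30 reads.

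The remaining expressed members of families 1 to 3 differed by less than 2-fold. CYP2S1, an epithelial form of lung and skin, was at 19.1 and 11.3 (log2 ratio -0.70), and CYP2D6, which metabolises many drugs, at 7.94 and 5.85 (-0.38). CYP2D6 shares 34.4% of its 50-base words with other genes, mainly the pseudogene CYP2D7, and is uncertain. CYP2E1, an ethanol-metabolising form, was at 4.65 and 6.91 (0.49) and CYP2W1, a tumour-associated form, at 1.84 and 1.25 (-0.34). Of the 21 genes of this class, 11 were expressed, of which 4 were higher and 2 lower by 2-fold or more, beside 10.6% and 9.68% of all expressed genes. The lung forms CYP2F1, with 12 and 5 reads, and CYP2A13, with none, were not expressed, nor were CYP2A6 (2 reads in each), CYP2A7 (3 and 0) and CYP2B6 (2 and 0).

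Of 5 fatty acid hydroxylases of family 4 with at least 30 reads, 3 had whole counting intervals beyond 2-fold lower and none beyond 2-fold higher, beside 11.0% and 12.0% of all genes with that many reads. CYP4F11, which hydroxylates long-chain fatty acids and vitamin K, was at 7.15 (1022 reads) in parental and 0.690 (95 reads) in resistant cells, 10.4-fold lower (8.39 to 12.9, log2 ratio -2.27). CYP4B1, a lung form, had 248 and 0 reads, which is 79.6-fold lower against a floor of 3 reads per library (interval bound 64.3). CYP4F3, which inactivates leukotriene B4, had 112 reads and 1 read, 108-fold lower with an interval of 19.0 to 4299. CYP4V2, a ubiquitous form, went the opposite way, at 6.94 and 11.4 (0.64), without reaching 2-fold. CYP4X1 had 51 and 16 reads, 3.07-fold lower with an interval of 1.72 to 5.77.

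The other 7 of the 12 family 4 genes had at most 21 reads. CYP4F2 had 21 and 12 reads, with 12.1% of its 50-base words shared with another gene, and CYP4F12 15 and 1. CYP4Z1 had 3 and 0 reads and CYP4A11 1 and 0. CYP4A22, CYP4F8 and CYP4F22 had none.

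Steroid hormone enzymes were scarce, and the 3 with at least 30 reads had whole counting intervals beyond 2-fold lower, beside 11.0% of all genes with that many reads. CYP19A1, the aromatase that makes oestrogens, had 132 reads in the parental library and 1 read in the resistant one, 127-fold lower with an interval of 22.4 to 5059. CYP11A1, the side-chain cleavage enzyme that starts steroid synthesis, had 144 and 31 reads, 4.47-fold lower (3.02 to 6.83). CYP21A2, the adrenal 21-hydroxylase, had 94 and 22 reads, 4.12-fold lower (2.57 to 6.88). It shares 33.2% of its 50-base words with the pseudogene CYP21A1P and overlaps TNXB on the opposite strand (19.5 and 6.19), so its value is uncertain. CYP11A1 alone reached a level of 1 (1.01 in the parental library), and no gene of the class was 2-fold lower by the log2 ratio (-0.93, -0.71 and -0.52 in the order given). CYP17A1 had 3 reads and 1 read, and CYP11B1 and CYP11B2 had none. The markers of adrenal and gonadal steroid cells were near 0: of 5, none was expressed, and their summed level was 0.833 and 0.291.

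Among the sterol and bile acid enzymes, CYP51A1, the lanosterol demethylase of cholesterol synthesis, was at 154 (22045 reads) in parental and 181 (24856 reads) in resistant cells, 1.17-fold higher (1.15 to 1.19). In GENCODE 29 most of its exon length (79.4%) is also part of another model on the same strand, and 78.6% of its 50-base words occur in another gene, so its value is uncertain. Of 18 other genes of sterol synthesis and uptake, all expressed, 16 were within 2-fold and 2 were higher by more, near the 10.6% of all expressed genes, with a median log2 ratio of -0.15. LSS, which makes lanosterol and so acts just before CYP51A1, was at 97.2 and 491 (2.33). EBP (-0.66), NSDHL (-0.57) and HSD17B7 (-0.54), which act after it, were lower without reaching 2-fold.

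CYP7B1, which hydroxylates oxysterols, had 0 parental and 140 resistant reads, 48.4-fold higher against the floor of 3 reads (interval bound 38.9). Its level of 1.02 lies just above the minimum. CYP39A1, another oxysterol hydroxylase, had 25 and 91 reads, 3.78-fold higher (2.41 to 6.14), and CYP27A1, the mitochondrial sterol hydroxylase, 129 and 76, 1.63-fold lower (1.22 to 2.20). CYP7A1, the rate-limiting enzyme of bile acid synthesis, had none, and CYP8B1 had 1 and 3 reads. The brain cholesterol hydroxylase CYP46A1 had 8 and 0, 2.57-fold lower against the floor (interval bound 1.64).

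The widely expressed CYP20A1 and CYP2U1 made up the rest. CYP20A1, whose substrate is not established, was at 8.45 and 13.9 (log2 ratio 0.66), and CYP2U1, a fatty acid hydroxylase, at 5.57 and 8.79 (0.58). With CYP2R1 and CYP4V2, these 4 had ratios between 1.58 and 1.65.

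In all, 24 of the 55 genes stayed under 30 reads in both libraries. Of these 9 had no reads in either, 6 had reads in 1 library, at most 8, and 9 had reads in both, at most 22. A count of 0 allows a level of up to 0.0210 (parental) or 0.0218 (resistant).

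Transcripts of the proteins that supply the P450 enzymes were all found, that of CYB5R2 in the parental library only. All 16 genes of a list of electron donors and haem enzymes passed the minimum, with a median log2 ratio of -0.02. By 2-fold or more, 1 was higher and 3 were lower, beside 10.6% and 9.68% of all expressed genes. POR, the reductase of the endoplasmic reticulum, was at 478 and 254 (-0.91), and cytochrome b5, CYB5A, at 57.0 and 22.4 (-1.31). The b5 reductase gene CYB5R2 had 1590 and 0 reads, 510-fold lower against the floor of 3 reads, while CYB5R3 was at 343 and 681 (0.99). ALAS1, the first enzyme of haem synthesis, was at 309 and 144 (-1.10). On the mitochondrial side, FDX1, the electron donor of CYP24A1 and CYP11A1, was at 21.3 and 21.9 (0.03), and its relative FDX1L at 12.3 and 47.3 (1.86).

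Receptors and factors known to control P450 genes went both ways: of 25 expressed, from a list of 30, 5 were higher and 5 lower by 2-fold or more, beside 10.6% and 9.68% of all expressed genes, and the median was -0.21. The bile acid receptor NR1H4 had 28 and 9602 reads (5.89). CEBPA, a factor of liver and lung, was at 0.413 and 4.20 (1.88). The retinoic acid receptor RARG was at 164 and 26.3 (-2.60). Whether any of these genes bears on the P450 genes was not tested.

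**Figure D3:**
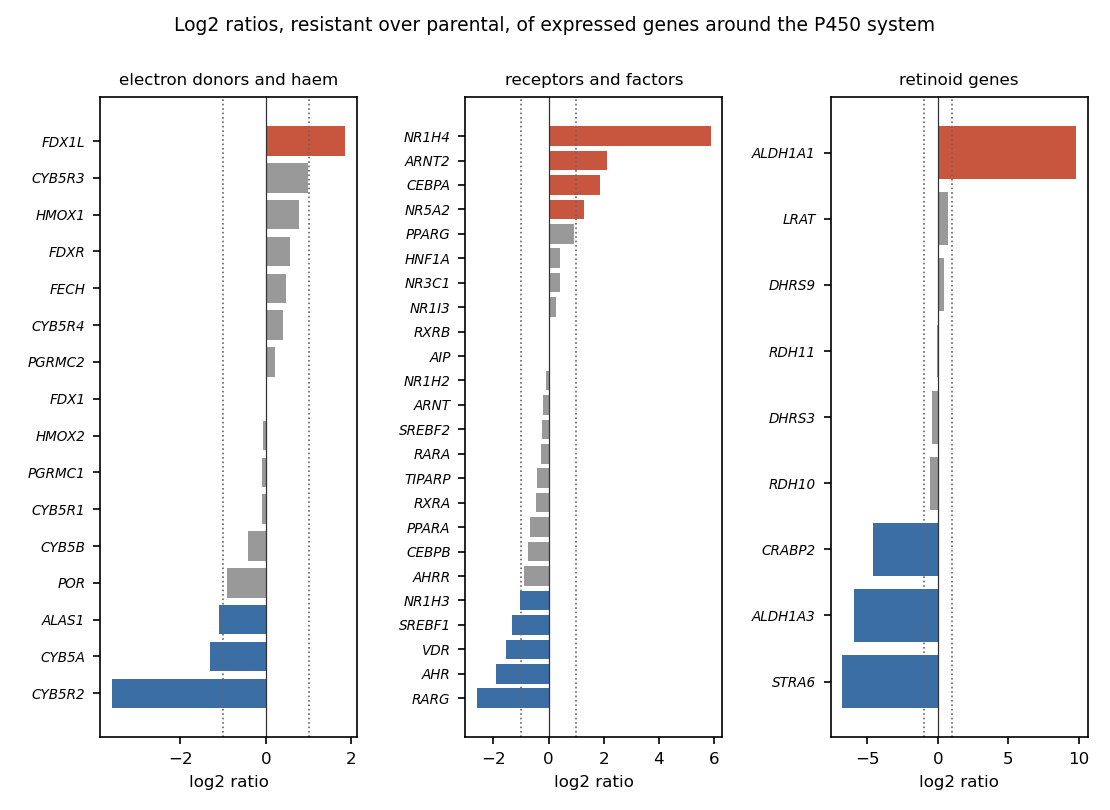
Log2 ratio of resistant over parental for expressed genes of 3 lists: electron donors and haem enzymes, receptors and factors that control cytochrome P450 genes, and retinoid genes. Red and blue bars are at least 2-fold higher and lower (dotted lines), and the horizontal scales differ; AHR, VDR and RARG are among the lower and NR1H4 and CEBPA among the higher factors.

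Each member was also set beside its neighbours on the chromosome. For each expressed member the 20 closest expressed genes to either side were taken, other members left out, and their median log2 ratio lay between -0.35 and 0.32. CYP4V2, CYP2W1 and CYP2E1, near chromosome ends, had 22, 28 and 20 such neighbours in all. With that median subtracted, the same 12 genes remained beyond 2-fold, 6 higher and 6 lower. The neighbours of CYP2J2 were mixed: those at lower coordinates had a median of 1.87 and those at higher coordinates one of -0.50, and CYP2J2 at 1.58 lies at the border. For CYP4B1 (-1.45) the medians of the sides were -0.63 and 1.12. The neighbours of CYP3A5 and CYP3A4 had a median of -0.06 and those of CYP24A1 one of -0.10.

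**Figure D4:**
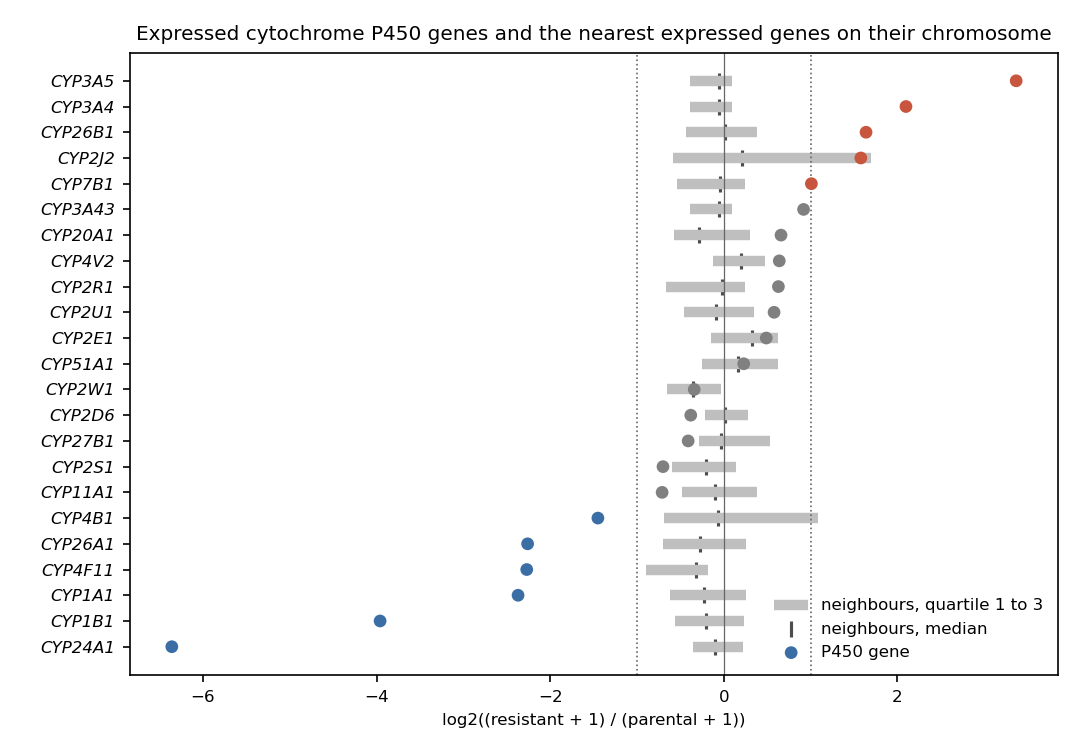
Log2 ratio of each of 23 expressed cytochrome P450 genes (points; red at least 2-fold higher, blue at least 2-fold lower, grey neither) beside the nearest expressed genes on its chromosome (bar from quartile 1 to 3, tick at the median). The 11 coloured genes stand apart from the medians of their neighbours, and the bar of CYP2J2 reaches its own value.

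The identity of the cells was checked on markers. Of 10 genes of lung adenocarcinoma epithelium 9 were expressed, 8 of them lower by 2-fold or more in resistant cells, beside 9.68% of all expressed genes. The 10 summed to 14685 and 5636. KRT7 was at 2615 and 1990, while the lung factor NKX2-1 was at 95.0 and 9.33 and SFTPB was below the minimum in both. Of 10 hepatocyte markers 4 were expressed. Of these 3 were higher by 2-fold or more, beside 10.6% of all expressed genes, and 1 was within 2-fold. The 10 summed to 566 and 2472, most of it SERPINA1 (365 and 2262). ALB was at 0.140 and 1.56. APOA1, APOB and TTR, among the markers of this list that were not expressed, had at most 5 reads. Leukocyte markers (2 of 6 expressed) summed to 157 and 320, nearly all CD68 (155 and 320), with CD3E at 0 reads in both. Fibroblast markers (1 of 6 expressed) summed to 9.53 and 1.90, and endothelial markers (0 of 4 listed in the table) to 0.553 and 0.0945. The part of these genes in the P450 differences was not tested. In such bulk RNA, fewer cells with a transcript and less of it per cell cannot be told apart.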

How the data were processed

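Polyadenylated RNA of the 2 cultures was sequenced on an Illumina instrument, per the labels' protocols. Of the alignment, the submitters' processing notes name TopHat. Not given in the sources used here: its version, counter, build and strand setting. The deposited values are log2 levels per gene and library, and the table's name calls them RPKM. Back-transformed, they were whole multiples of 1 step per library (0.00700 parental, 0.00727 resistant) within 0.1 read for 100% of the 17090 and 17049 genes with 1 to 100000 reads, so they were not divided by length. The 3504 and 3573 genes at the lowest value, 0.9 reads, were taken as genes without reads. The column ending in Prim was read as the parental line.

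Recovered reads gave the intervals and floors. No count model was fitted, since each group held 1 library. Members were matched to GENCODE 29 by Ensembl identifier (55 of 55). To RefSeq promoters they were matched by symbol, which gave windows for 39 of 55. Members on chromosome 8 were left out, and the others without a window, CYP1B1 and CYP24A1 among them, had no entry. Members and lists were chosen with earlier results of these data known. Named were all members with a level of at least 1, those below it with at least 30 reads or with 0 reads in 1 library, and up to 6 expressed genes of each other list with the largest absolute log2 ratio. The remaining members were added. Some genes of the family and the lists count in the totals and are not reported here by name. The scripts, run in Python 3.11.15 with scipy 1.17.1, were tested on simulated data. Alternatives were other pseudocounts, minimum levels and scalings, and the interval rule was added after seeing the data.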

Additional observations from a re-analysis of the deposited data

How the results depend on the processing

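With 1 library per group none of these differences has a replicate check. No paired analysis was possible because each group held 1 library. The count of 6 higher cytochrome P450 genes fell to 2 both at pseudocount 5 and at minimum level 5, with 4 lower genes each time; among all genes the shares were then 6.54% higher and 6.28% lower, and 9.94% and 9.30%. The 10 lower genes of the counting-interval rule, beside 6 by the log2 ratio, add CYP4F3, CYP19A1, CYP11A1 and CYP21A2, which stand at levels of at most 1.01. A pseudocount of 0.1 gave 7 higher and 7 lower, beside 12.4% and 11.4% of all expressed genes. Scaling to equal total reads or by the median of ratios raised all resistant levels by 0.02 on the log2 scale and left 6 and 6. Among all expressed genes 11.0% were then higher, and 9.40% and 9.42% lower. Of 96 log2 ratios under other settings, 28 moved beyond counting error. None could change sign, since a pseudocount keeps the sign and the scalings shift by 0.02 only. CYP4B1 and CYP7B1, with 0 reads in 1 library, have no bounded interval and could not count as moved. Counts for the electron donors and for the receptors and factors stayed within 1.5 times. Counting error limits CYP4F3, CYP19A1 and CYP3A43 most.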

Other observations

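Genes of steroid and aldehyde metabolism outside the P450 family are related to the members described above and were examined with them. Of 15 steroid synthesis genes in the table, from a list of 16, 10 were expressed, with a median log2 ratio of 0.10. By 2-fold or more, 2 were higher and 1 was lower, beside 10.6% and 9.68% of all expressed genes. Values are parental, then resistant. The aldo-keto reductases AKR1C2 and AKR1C1, which inactivate progesterone and androgens, were at 5.33 and 33.3 (log2 ratio 2.44) and at 5.90 and 21.4 (1.70), and AKR1C3 was at 22.9 and 42.7 (0.87). AKR1C genes are near-identical, so reads can be split between them. STS, the steroid sulfatase, was at 16.9 and 5.59 (-1.44). HSD17B3 was at 0.224 and 1.21 (0.85) and HSD17B6 at 2.65 and 1.13 (-0.78). STAR, the gene that delivers cholesterol to CYP11A1, had 4 and 8 reads, and HSD3B1 and HSD3B2 had none in either library. The AHR-responsive aldehyde dehydrogenase ALDH3A1 had 80 and 0 reads, 25.7-fold lower against the floor of 3 reads.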
